A study of Mus musculus with 40 samples.

Results

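The expression of the NF-κB subunits and their inhibitors was examined by RNA-seq in bone marrow-derived macrophages (BMDMs), obtained by culturing mouse bone marrow cells until they become macrophages. The group was set by gene symbol and holds 10 of the 43430 genes in the count table: the 5 Rel subunits (*Nfkb1*, *Nfkb2*, *Rel*, *Rela* and *Relb*) and 5 inhibitors and related regulators (*Nfkbia*, *Nfkbie*, *Nfkbiz*, *Bcl3* and *Tnfaip3*). All 10 passed the filter on low counts, together with 11853 genes in all. BMDMs came from 5 WT and 5 NDI1 mice, labelled C57/Bl6, and both genotypes carried the Vav-iCre transgene, which is active in the hematopoietic lineage. NDI1 mice also carried a lox-stop-lox NDI1 allele at Rosa26, so their macrophages expressed NDI1, a yeast NADH dehydrogenase that piericidin A does not inhibit, whereas WT mice lacked that allele. According to the methods of the study, the mice were littermates of mixed C57Bl/6J and C57Bl/6N background and of both sexes, and the labels do not give the sex of each. Cells of every mouse received no treatment, LPS (100 ng/ml, 4 h), piericidin A (500 nM), or piericidin A 30 min ahead of LPS. This gave 8 groups of 5 libraries and 40 libraries in all, so that every mouse contributed 1 library to each treatment. LPS is a lipid of Gram-negative bacteria that macrophages sense through TLR4, and piericidin A is an inhibitor of mitochondrial complex I. The comparisons address whether the response of these genes to LPS or to complex I inhibition depends on NADH oxidation, which NDI1 restores when complex I is inhibited.

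NF-κB proteins are transcription factors that bind DNA as pairs of Rel subunits. RelA, RelB and c-Rel carry a transactivation domain, whereas *Nfkb1* and *Nfkb2* encode the precursors p105 and p100, which are cleaved to p50 and p52. In resting macrophages, IκB proteins such as IκBα (*Nfkbia*) and IκBε (*Nfkbie*) hold the dimers in the cytoplasm. When LPS engages TLR4, the IKK complex phosphorylates the IκB proteins, they are degraded and the dimers enter the nucleus, where they also induce genes of their own inhibitors. The protein of *Nfkbiz* (IκBζ) and that of *Bcl3* are IκB proteins that act in the nucleus as cofactors of p50 and p52. *Tnfaip3* encodes A20, a ubiquitin-editing enzyme that switches off the signal upstream of IKK.

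The libraries held between 6950748 and 13552070 counts. Macrophage markers were high in every group, with *Lyz2* at a group mean of at least 17210 CPM (counts scaled to library size with TMM factors) and *Csf1r* at 2380 or more. WT mouse 496 and NDI1 mouse 503 stood apart from the other mice on the second principal component, which held 7.32% of the variance. Their 8 libraries scored from 28.1 to 72.8 and the other 32 libraries from -26.3 to 13.6. The summed level of 8 neutrophil markers was also highest in these mice. In untreated WT libraries it was 389 CPM in mouse 496 and 21.4 to 84.5 CPM in the other 4 mice, and with piericidin A it was 1303 CPM in mouse 496 and 28.2 to 98.6 CPM in the others. The sum was higher with piericidin A alone than untreated in 5 of 5 WT mice, and in NDI1 libraries it was 12.3 to 400 CPM untreated and 17.5 to 511 CPM with piericidin A. Of the 7 markers that passed the filter, 0 were called with piericidin A in WT (edgeR, median log2 fold change 1.53). With the mouse as a block 5 rose, where 17.2% of all genes tested rose. In NDI1, 0 were called with or without the block, where 0 of all genes tested were called. The sum was also higher in 5 of 5 WT mice with LPS than untreated, at 784 CPM in mouse 496 and 40.6 to 100.2 CPM in the others, and higher again in 5 of 5 with both treatments, at 2077 CPM and 77.3 to 137 CPM. Of the 7 markers 0 were called in either comparison. With the block 3 rose and 1 fell with LPS, where 4310 of all 11853 genes tested rose and 4220 fell. With piericidin A under LPS 5 rose with the block, where 1854 of the 11853 rose. *S100a9*, *Ltf* and *S100a8* made up most of the sum. Other cell type markers were far lower, and none was called with piericidin A in either genotype. Summed levels in WT were 1.27 to 33.1 CPM untreated and 1.12 to 64.0 CPM with piericidin A for 6 stromal markers, at most 0.795 and 6.39 CPM for 6 lymphocyte markers, and 2.66 to 5.48 and 3.64 to 13.1 CPM for 6 mast cell and dendritic cell markers. The median log2 fold changes of those that passed the filter were 0.89 (4 genes), 1.59 (3 genes) and 1.11 (3 genes) in WT and 0.05, 0.38 and 0.28 in NDI1. With the block 1 mast cell or dendritic cell marker rose in WT, where 17.2% of all genes tested rose. The part of these markers in the results was not tested. Of the other neutrophil markers in WT libraries with piericidin A alone, the highest level was 27.8 CPM for *Camp*, 21.8 for *Mpo*, 10.6 for *Retnlg*, 7.62 for *Elane* and 0.525 for *Ly6g*, which reached 2.02 CPM in WT with both treatments. In bulk samples, fewer cells of a type and less RNA per cell cannot be told apart. CPM values of single libraries are listed below in the order of mice 449, 452, 453, 496 and 520 for WT and 447, 460, 461, 503 and 521 for NDI1.

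The regions just upstream of the transcription starts were searched for the κB consensus, the 10-base sequence that NF-κB dimers bind, on both strands. RefSeq promoter windows (GRCm38.p6; 250 bases before and 50 after the start) were given for 7 of the 10 genes, and none for *Nfkb1*, *Relb* and *Nfkbiz*. These genes had 10 windows, of which 8 held a match, from 6 of the 7 genes, and 4.51% of all 32851 windows held one. The second window of *Tnfaip3* held none. The upstream sequences of 5 genes are printed 5′ to 3′ in the direction of the gene, as examples of regions with matches near the start and, for *Rela*, without one. Capitals mark the matches, and bases that lie in an annotated exon are left out.

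*Nfkbia* (chr12:55492648-55492897, minus strand): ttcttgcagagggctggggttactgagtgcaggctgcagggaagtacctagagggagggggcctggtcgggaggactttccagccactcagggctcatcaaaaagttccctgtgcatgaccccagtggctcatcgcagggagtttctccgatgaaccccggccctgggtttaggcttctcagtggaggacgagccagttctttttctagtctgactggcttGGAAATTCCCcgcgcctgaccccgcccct

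*Tnfaip3* (chr10:19015411-19015547, minus strand): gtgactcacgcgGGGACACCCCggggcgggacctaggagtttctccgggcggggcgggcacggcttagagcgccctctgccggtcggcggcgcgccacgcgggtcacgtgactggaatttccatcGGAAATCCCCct

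*Rel* (chr11:23770971-23771219, minus strand): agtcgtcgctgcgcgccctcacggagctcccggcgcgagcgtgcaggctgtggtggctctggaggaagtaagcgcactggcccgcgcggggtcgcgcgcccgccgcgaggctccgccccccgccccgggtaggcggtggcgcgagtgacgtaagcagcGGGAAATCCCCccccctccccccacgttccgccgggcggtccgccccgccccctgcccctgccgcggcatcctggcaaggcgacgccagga

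*Nfkbie* (chr17:45555450-45555699, plus strand): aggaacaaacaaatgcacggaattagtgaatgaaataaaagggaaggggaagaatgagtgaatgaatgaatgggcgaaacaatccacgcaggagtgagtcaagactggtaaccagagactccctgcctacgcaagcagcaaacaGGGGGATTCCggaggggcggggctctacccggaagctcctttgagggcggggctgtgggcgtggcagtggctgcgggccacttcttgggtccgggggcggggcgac

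*Rela* (chr19:5637291-5637482, plus strand): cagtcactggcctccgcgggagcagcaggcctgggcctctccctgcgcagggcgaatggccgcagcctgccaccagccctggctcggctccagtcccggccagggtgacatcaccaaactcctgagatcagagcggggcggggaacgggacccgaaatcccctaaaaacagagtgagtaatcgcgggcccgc

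The match in *Nfkbia* began 29 bases before the start, and those in *Tnfaip3* 125 and 12 bases before it. *Rel* had a pair of overlapping matches that together cover 11 bases, the first of them 92 bases before the start. The match in *Nfkbie* began 106 bases before the start. The first of 3 windows of *Nfkb2* held 3 matches, an overlapping pair that began 39 and 38 bases before the start and another at 11 bases, and the window of *Bcl3* held 1 just past its start. *Rela* held no match in its window. These are matches of letters only, and binding was not measured.

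In untreated WT BMDMs, *Nfkbia* had the highest level of the 10 genes per kilobase of transcript. Each level was divided by the length of the longest annotated transcript, capped at the exon length of the count table. The level of *Nfkbia* was 101 ± 32.8 CPM per kilobase (mean ± SD, n = 5 mice), and its lowest library lay above the highest library of every other member. *Rela* followed at 54.1 ± 8.01, *Nfkb1* at 43.3 ± 14.3, *Nfkb2* at 42.5 ± 8.13 and *Relb* at 35.4 ± 7.68 CPM per kilobase. Neighbours in this order overlapped between mice from *Rela* down to *Tnfaip3*, which was at 14.5 ± 3.67, so their order is not resolved. *Rel* at 7.96 ± 1.01 and *Nfkbiz* at 4.19 ± 1.83 CPM per kilobase were the lowest at these lengths, without overlap with the next gene in the order. The lower end of the order depends on the length used. The cap set *Rel* to 2799 bases of an annotated 7466, and with 7466 bases its mean was 2.99 CPM per kilobase, below *Nfkbiz*. With the exon lengths of the count table, *Relb* at 4.18 and *Tnfaip3* at 3.85 CPM per kilobase lay below *Rel*, and *Nfkbiz* was lowest at 1.02. *Nfkbia* and *Rela* were first and second at each of these lengths and at the mean transcript length. The uncapped length and the exon lengths of the count table were chosen as alternatives after seeing the data. Untreated NDI1 BMDMs gave the same order except that *Nfkb1* and *Nfkb2* changed places, at 42.3 ± 13.0 and 42.7 ± 10.2 CPM per kilobase, and *Tnfaip3* and *Rel* overlapped between mice there.

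**Figure D1:**
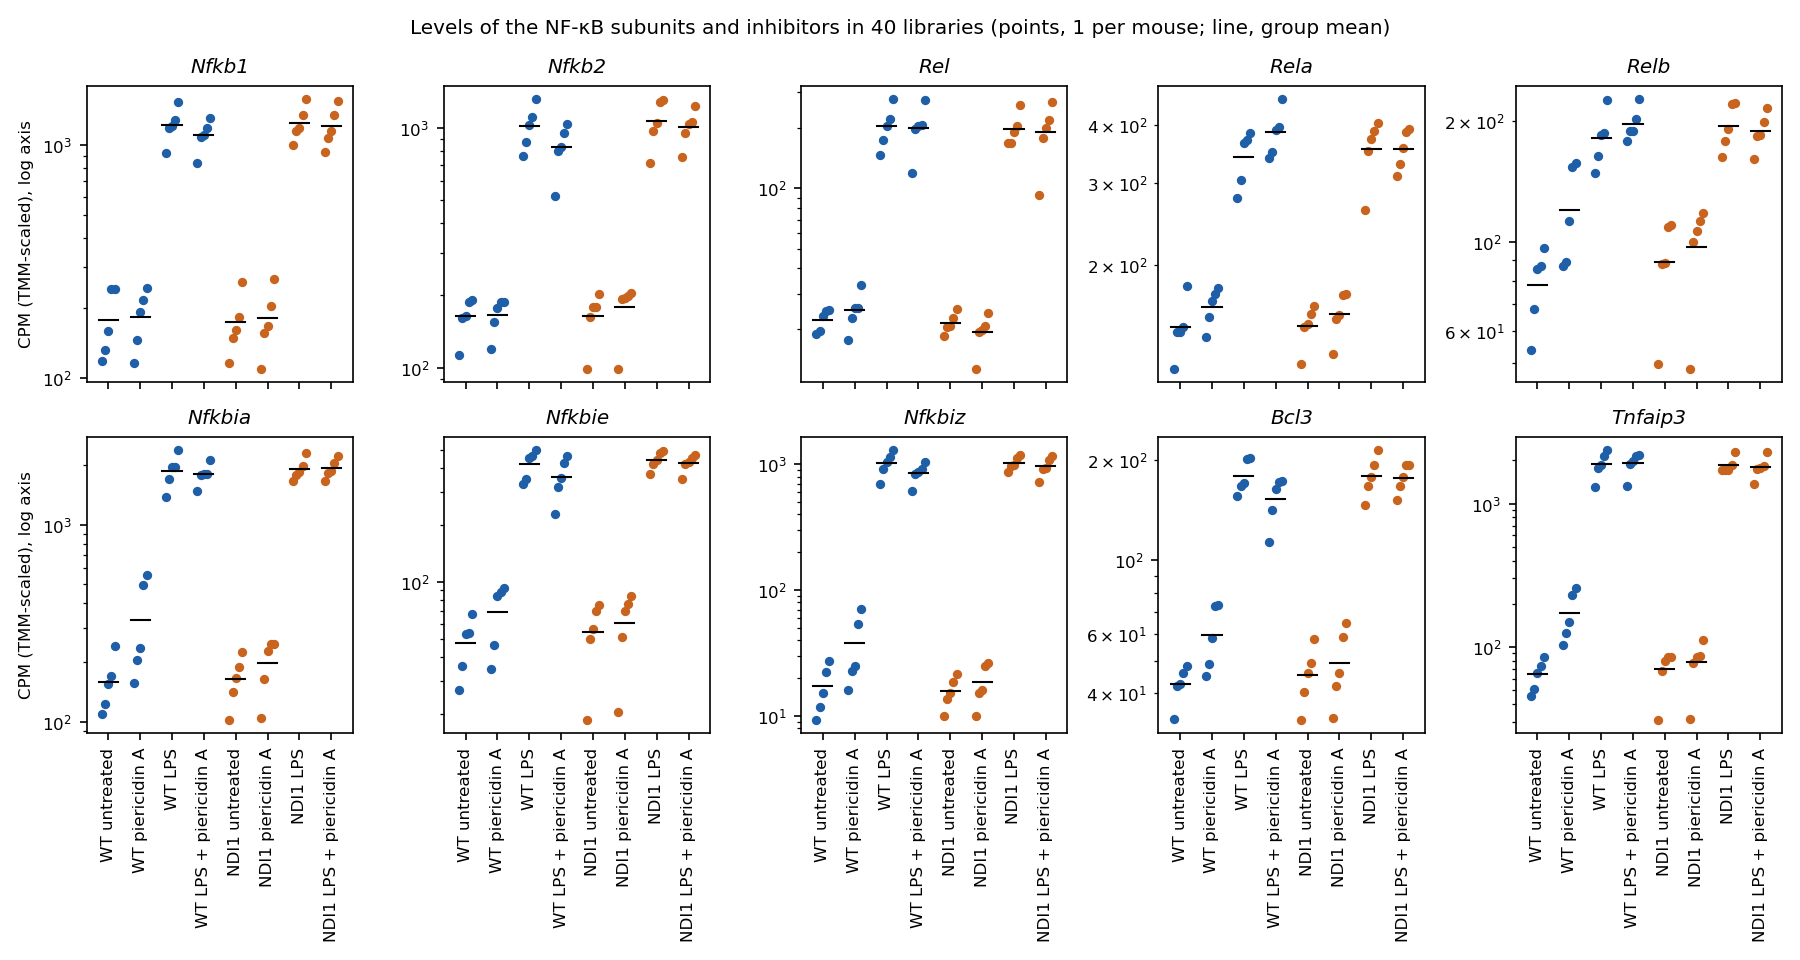
TMM-scaled CPM on a log axis for each of the 10 genes, with 1 point per library, a line at the mean of each group, WT in blue and NDI1 in orange. In all 10 genes the LPS libraries of each genotype lay above its untreated libraries, and *Tnfaip3* in WT was the gene whose piericidin A libraries (104 to 258 CPM) did not overlap the untreated ones (45.1 to 84.8 CPM). Overlap was not counted over all genes tested.

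Treatment with LPS changed the levels of all 10 genes. LPS raised every member in WT, 10 of 10, where 31.5% of the genes tested rose, and likewise 10 of 10 in NDI1 BMDMs, where 31.5% rose. The median log2 fold change of the 10 genes was 2.96 in WT and 2.93 in NDI1, against -0.01 over all genes tested in both. In each genotype the untreated and LPS libraries of all 10 genes did not overlap. The share of all genes tested without such overlap was not counted. *Nfkbiz*, *Tnfaip3* and *Nfkbia* gave the largest rises in WT, and *Rela* and *Relb* the smallest.

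*Nfkbiz* had the largest rise. It was at 11.8, 15.2, 9.34, 22.3 and 27.5 CPM in untreated WT libraries and at 1138, 1042, 692, 1296 and 921 CPM with LPS. The lowest LPS library was thus far above the highest untreated library, and the log2 fold change was 5.88 (SE 0.36, adjusted p = 1.3e-16, edgeR), or 59.0-fold. In NDI1 BMDMs *Nfkbiz* rose from 13.6, 15.1, 10.1, 21.6 and 18.6 CPM to 985, 979, 1114, 1192 and 872 CPM, with a log2 fold change of 6.03 (SE 0.36).

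*Tnfaip3* rose in WT from 45.1, 73.8, 51.1, 66.1 and 84.8 CPM to 2149, 1864, 1308, 2357 and 1758 CPM, a log2 fold change of 4.88 (SE 0.30, adjusted p = 2.0e-16), which made it the most abundant of the 10 genes by CPM together with *Nfkbia*. The 2 genes differed in CPM by less than the spread between mice, at 1887 ± 401 and 1882 ± 373. *Nfkbia*, which encodes the main cytoplasmic inhibitor, rose from 109, 169.8, 123, 155 and 241 CPM to 1969, 1709, 1379, 2391 and 1960.0 CPM, with a log2 fold change of 3.56 (SE 0.29, adjusted p = 1.9e-13). Per kilobase, *Nfkbia* stayed above every other gene with LPS, at 1193 ± 236 CPM per kilobase against 427 ± 90.6 for *Tnfaip3*. *Nfkbie* rose 8.80-fold and *Bcl3* 4.22-fold.

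Among the subunits, *Rel* rose most. It was at 23.3, 24.6, 19.6, 19.0 and 25.0 CPM in untreated WT libraries and at 277, 221, 146, 204 and 174 CPM with LPS, a log2 fold change of 3.20 (SE 0.23, adjusted p = 6.6e-15). *Nfkb1* rose 6.85-fold and *Nfkb2* 6.23-fold, with 95% confidence intervals of the log2 fold change from 2.29 to 3.26 and from 2.20 to 3.08. *Rela* rose from 119, 147, 144, 143 and 180.3 CPM to 366, 372, 305, 383 and 278 CPM, and *Relb* from 54.0, 85.7, 68.1, 87.0 and 96.3 CPM to 184, 186, 148, 226 and 163 CPM. Both rises were 2.32-fold, the smallest of the 10. With library totals in place of TMM factors, the median gene shifted by -0.78 on the log2 scale between untreated and LPS libraries of WT, and the folds of *Rela* and *Relb* were 1.35 and 1.34.

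**Figure D2:**
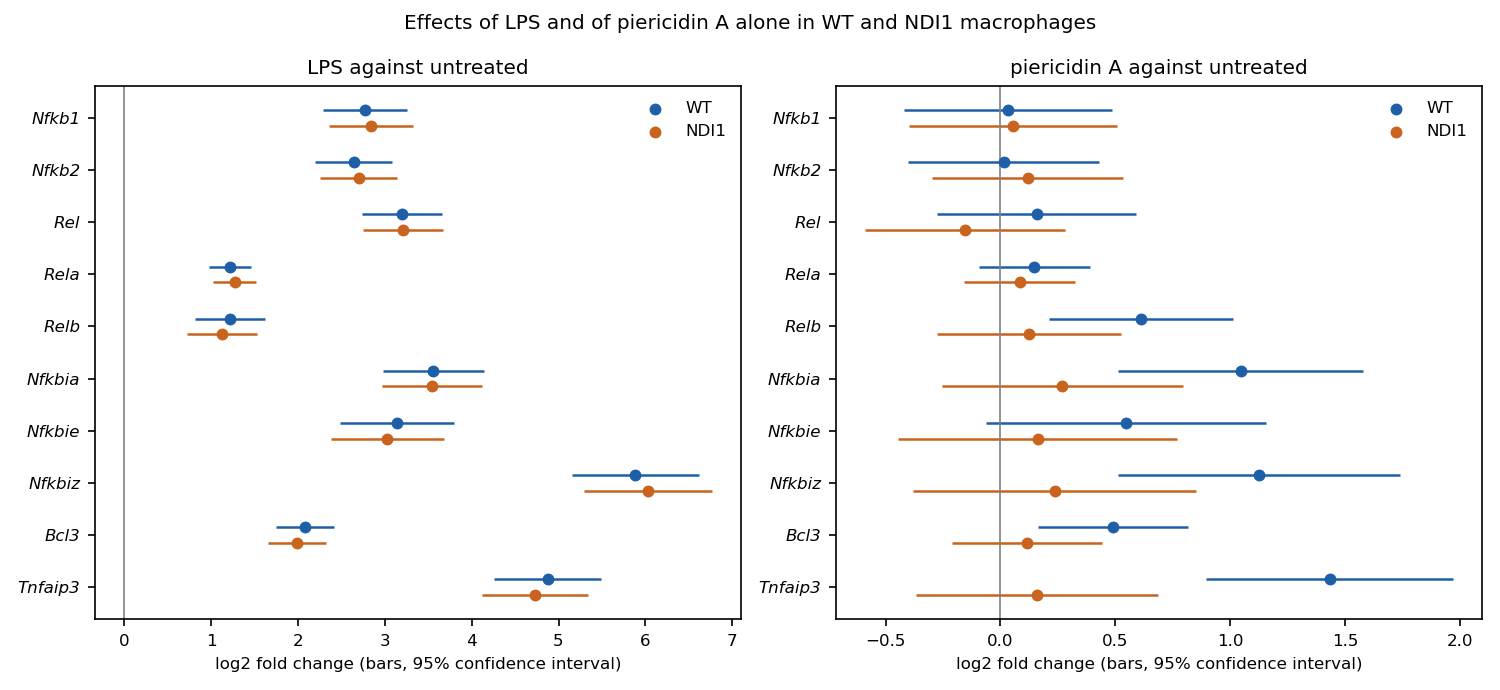
log2 fold changes with 95% confidence intervals for LPS (left) and piericidin A (right), each against untreated libraries, in WT (blue) and NDI1 (orange), n = 5 mice per group. The LPS effects of the genotypes lay close together for all 10 genes, from 1.13 for *Relb* to 6.03 for *Nfkbiz* in NDI1, whereas with piericidin A the WT intervals of 5 genes lay above 0 and the NDI1 intervals of all 10 included 0.

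The unequal rises changed the make-up of the subunit mRNA. In untreated WT BMDMs, *Rela* made up 29.8 ± 2.78% of the summed per-kilobase level of the 5 subunits, *Nfkb1* 23.2 ± 3.67%, *Nfkb2* 23.2 ± 1.49%, *Relb* 19.3 ± 1.16% and *Rel* 4.49 ± 1.09% (SD, n = 5). With LPS, *Nfkb1* made up 35.3 ± 2.67% and *Nfkb2* 31.3 ± 2.38%, while *Rela* was at 15.0 ± 1.15% and *Relb* at 9.77 ± 0.411%. The shares of these 4 subunits did not overlap between untreated and LPS libraries of WT. *Rel*, at 8.66 ± 1.44% with LPS, also did not overlap. In NDI1 BMDMs the LPS shares were 34.9% for *Nfkb1*, 31.6% for *Nfkb2*, 15.1% for *Rela*, 10.2% for *Relb* and 8.23% for *Rel*. The size of each share depends on the transcript length used. With the uncapped length of *Rel*, its share was 1.73% untreated and 3.44% with LPS in WT. With the exon lengths of the count table for all 5 subunits, *Rela* was at 52.5% untreated and 28.3% with LPS in WT, and *Nfkb2* rather than *Nfkb1* had the largest share with LPS.

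**Figure D3:**
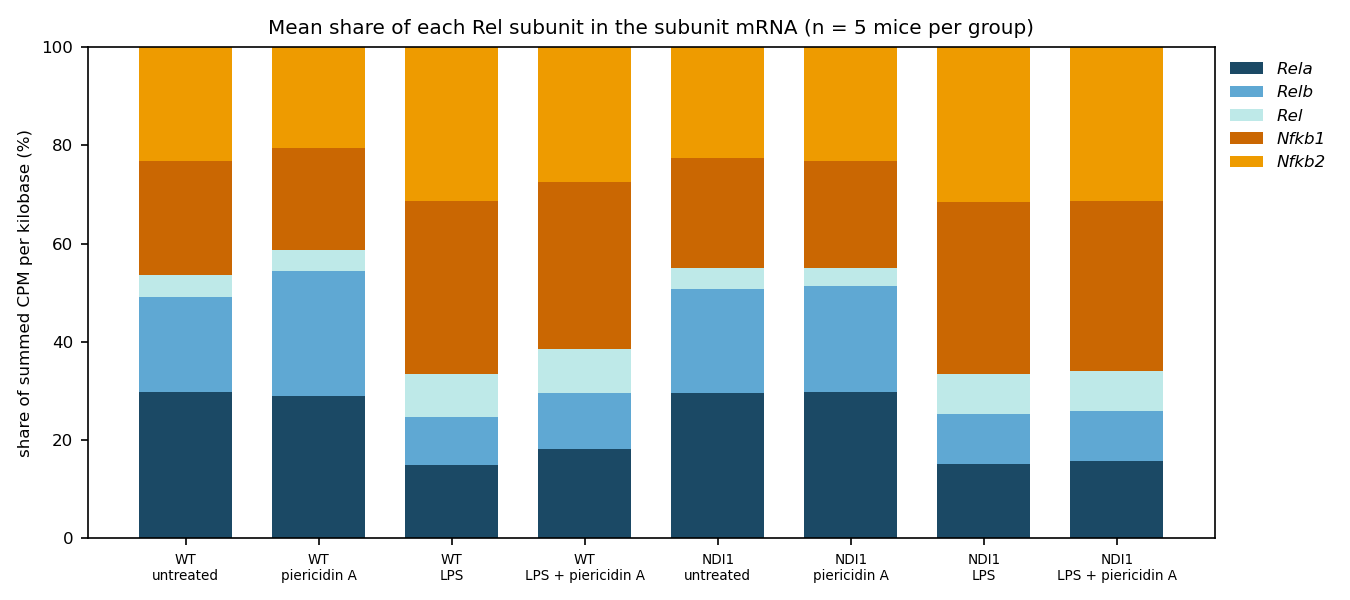
Mean share of each Rel subunit in the summed CPM per kilobase of the 5 subunits, in percent, for the 8 groups of 5 mice, as stacked bars from 0 to 100. *Rela* and *Relb* together take a smaller part of the bar in all 4 LPS groups, for example 15.0% and 9.77% in WT with LPS against 29.8% and 19.3% untreated.

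The response to LPS did not differ detectably between genotypes. In the test of the difference itself, 0 of 10 genes passed the threshold (0% of all genes tested, edgeR), 0 of 10 had an unadjusted p under 0.05, and DESeq2 also called 0. The difference in log2 fold change, NDI1 minus WT, lay between -0.14 for *Tnfaip3* and 0.14 for *Nfkbiz*. The 95% confidence intervals of the 10 differences reached from -0.96 for *Nfkbie* to 1.00 for *Nfkbiz*. Without treatment, 0 of 10 genes differed between NDI1 and WT (0% of genes tested), and with LPS alone 0 of 10 differed (0%). None of the 10 genes had an unadjusted p under 0.05 in these 2 comparisons, and DESeq2 called none.

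Piericidin A on its own raised some of the inhibitors and related regulators in WT BMDMs, and *Relb* among the subunits. Of the 10 genes, 5 rose and none fell, where 7.79% of genes tested rose. *Tnfaip3*, *Nfkbiz* and *Nfkbia* rose by more than 2-fold in the fit, and *Relb* and *Bcl3* by less. The median ratio within mice was 2.78 for *Tnfaip3*, 1.93 for *Nfkbiz* and 1.88 for *Nfkbia*. With library totals in place of TMM factors, the folds of these genes were 2.45, 1.98 and 1.86. In the same mice LPS raised *Tnfaip3* 29.4-fold and piericidin A 2.70-fold.

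*Tnfaip3* was at 125, 148, 104, 231 and 258 CPM with piericidin A, against 45.1, 73.8, 51.1, 66.1 and 84.8 CPM in untreated libraries of the same mice. The groups did not overlap, and within mice the ratio lay between 2.00 and 3.50, higher in 5 of 5. The log2 fold change was 1.43 (SE 0.26, adjusted p = 0.00024), and it passed the threshold under 11 of 11 alternative fits, with adjusted p between 2.7e-06 and 0.0055.

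*Nfkbia* was at 205, 237, 157, 495 and 554 CPM with piericidin A, against 109, 169.8, 123, 155 and 241 CPM. Mice 496 and 520 reached the highest values, and the other 3 libraries overlapped the untreated range. The level was higher in 5 of 5 mice, by 1.27- to 3.18-fold, and the log2 fold change was 1.04 (SE 0.26, adjusted p = 0.0060). *Nfkbiz* rose in 5 of 5 mice as well, by 1.65- to 2.59-fold, to 22.9, 25.1, 16.1, 53.4 and 71.2 CPM. Its log2 fold change was 1.13 (SE 0.30, adjusted p = 0.010), and mice 496 and 520 were again the highest.

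*Relb* was at 87.0, 112, 89.1, 153 and 157 CPM with piericidin A, with a log2 fold change of 0.61 (SE 0.20, adjusted p = 0.032). It was the only subunit called, and its share of the subunit mRNA was 25.5 ± 2.97%, against 19.3 ± 1.16% untreated. With the exon lengths of the count table these shares were 5.61% and 4.02%. *Bcl3* was at 45.1, 58.6, 48.7, 72.7 and 73.4 CPM, with a log2 fold change of 0.49 (SE 0.16, adjusted p = 0.035). Both genes were higher in 5 of 5 mice. *Nfkbie*, at 34.5, 84.6, 46.1, 88.4 and 92.8 CPM, was also higher in 5 of 5 mice but did not pass the test (log2 fold change 0.55, 95% confidence interval -0.06 to 1.15, adjusted p = 0.23). The other 4 subunits had log2 fold changes between 0.02 for *Nfkb2* and 0.16 for *Rel*.

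Single mice and the libraries in the fit decided part of these calls. The count of 5 genes was 1 without mouse 496 (*Tnfaip3*, log2 fold change 1.32, adjusted p = 0.0047), 3 without mouse 449 and 3 without mouse 520. With only the WT libraries compared in the fit, 1 call held (*Tnfaip3*, adjusted p = 0.0055), while *Bcl3*, *Relb*, *Nfkbia* and *Nfkbiz* had adjusted p-values of 0.052, 0.062, 0.062 and 0.084 in edgeR, with log2 fold changes of 0.50, 0.62, 1.06 and 1.14. Without both mice that stood apart the count was 2, *Tnfaip3* and *Nfkbiz*, and 4 in the same libraries with the mouse as a block. Without mouse 496, the log2 fold changes were 1.08 for *Nfkbiz*, 0.84 for *Nfkbia*, 0.55 for *Relb* and 0.41 for *Bcl3*. Mouse 496 was also the WT mouse with the high neutrophil marker level, whereas mouse 520, which had the highest *Tnfaip3*, *Nfkbia* and *Nfkbiz* with piericidin A, had a neutrophil marker sum of 62.7 CPM. The neutrophil marker sum, like these genes, was higher with piericidin A in 5 of 5 WT mice, and its part in the result was not tested beyond the values without mouse 496.

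**Figure D4:**
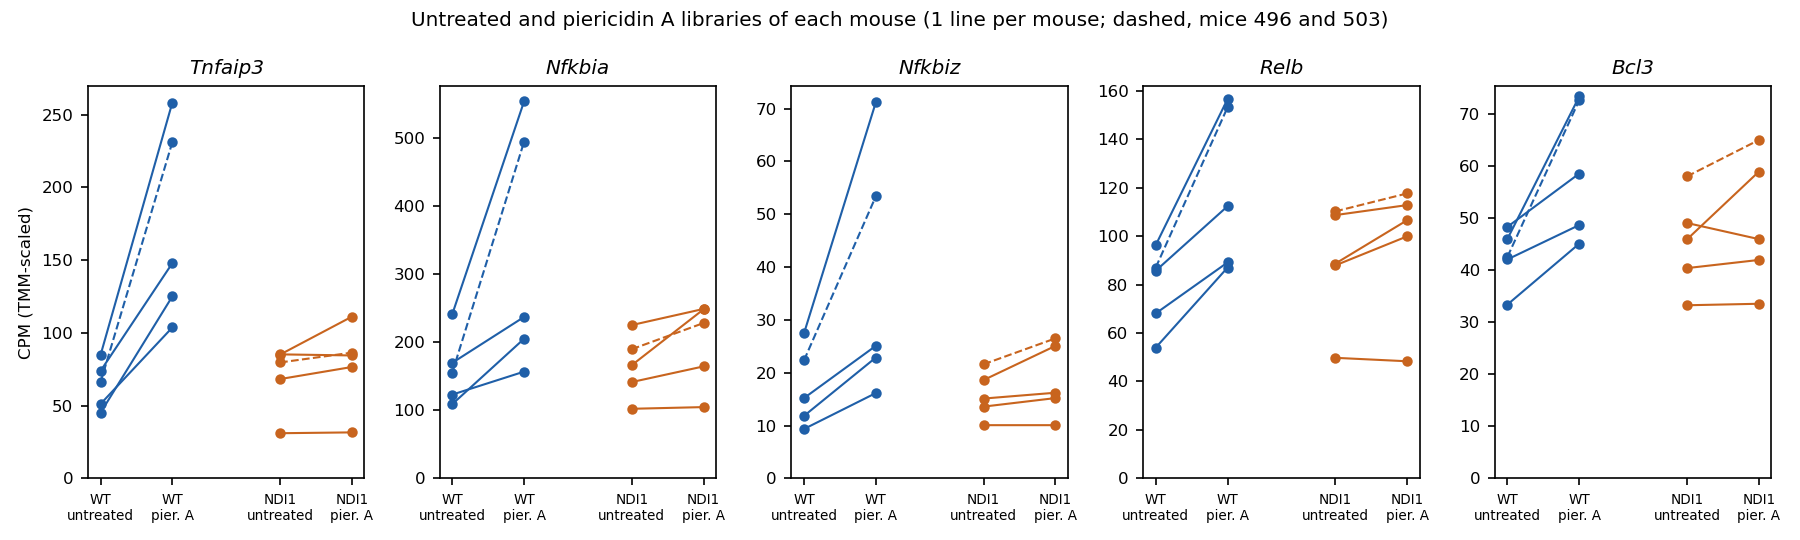
TMM-scaled CPM of the 5 genes called with piericidin A in WT, with 1 line per mouse from its untreated to its piericidin A library, WT in blue, NDI1 in orange, and mice 496 and 503 dashed. All WT lines rise, for example by 2.00- to 3.50-fold for *Tnfaip3*, while the ratios for *Tnfaip3* in NDI1 mice lie between 0.991 and 1.31.

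In NDI1 BMDMs, piericidin A gave no call. Of the 10 genes, 0 passed the threshold (0% of genes tested, edgeR), 0 had an unadjusted p under 0.05, and DESeq2 called 0. *Tnfaip3* was at 84.5, 76.5, 31.6, 86.4 and 111 CPM with piericidin A and at 85.2, 68.2, 31.0, 79.7 and 85.1 CPM without. The log2 fold change was 0.16 with a 95% confidence interval from -0.37 to 0.69, which lies below the WT estimate of 1.43. *Nfkbia*, at 248, 165, 105, 228 and 249 CPM against 166, 141, 102, 189.8 and 225 CPM, had a log2 fold change of 0.27 (95% confidence interval -0.26 to 0.80). *Nfkbiz*, at 15.2, 16.2, 10.1, 26.5 and 25.1 CPM, had a log2 fold change of 0.24 (-0.38 to 0.85), an interval that does not exclude a smaller rise than in WT. Within mice, *Nfkbia* (1.02- to 1.49-fold) and *Nfkbie* (1.01- to 1.25-fold) were higher with piericidin A in 5 of 5 NDI1 mice, and *Rel* (0.688- to 0.968-fold) was lower in 5 of 5.

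The test of the difference in the piericidin A effect between genotypes called 0 of 10 genes, where 1.27% of genes tested were called in either direction. An unadjusted p under 0.05 was found for 3 of the 10 and for 1331 of all 11853 genes tested (edgeR). *Tnfaip3* had the largest difference, NDI1 minus WT, at -1.27 on the log2 scale (SE 0.37, adjusted p = 0.0785). With the mouse as a block, which pairs the libraries of each animal, *Tnfaip3* alone passed the threshold at -1.24 (adjusted p = 0.0043), where 5.15% of genes tested were lower, and DESeq2 also called it alone (adjusted p = 0.029, with 1.72% of genes lower). Over 16 alternative fits the adjusted p of *Tnfaip3* lay between 0.0043 and 0.25, and without both mice that stood apart it was 0.375, or 0.0683 with the block. *Nfkbiz* differed by -0.89 (adjusted p = 0.42) and *Nfkbia* by -0.77 (adjusted p = 0.41), so a difference between genotypes was not shown for these genes.

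Compared directly in the presence of piericidin A, NDI1 BMDMs had lower levels of *Tnfaip3* and *Nfkbiz* than WT, 2 of 10 genes, where 4.31% of genes tested were lower. *Tnfaip3* averaged 78.0 ± 29.0 CPM in NDI1 and 173 ± 67.8 CPM in WT (SD, n = 5), and the groups overlapped because NDI1 mouse 521 reached 111 CPM. The log2 difference was -1.15 (SE 0.26, adjusted p = 0.0039). *Nfkbiz* averaged 18.6 ± 6.97 and 37.7 ± 23.5 CPM, with a log2 difference of -1.02 (SE 0.30, adjusted p = 0.031). *Nfkbia*, at 199 ± 63.0 and 329.6 ± 181 CPM, did not pass the test (-0.73, adjusted p = 0.080). The call for *Nfkbiz* was lost without any 1 of mice 447, 460, 461, 496 and 520, which left 1 gene, *Tnfaip3*. With only the 10 libraries compared, 0 genes passed (*Tnfaip3*, adjusted p = 0.063). In these libraries the neutrophil marker sum was 17.5 to 511 CPM in NDI1 and 28.2 to 1303 CPM in WT. The stromal marker sum was 0.914 to 11.7 CPM in NDI1 and 1.12 to 64.0 CPM in WT. The part of these markers in the difference was not tested.

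No change in the level that the 10 genes reached with LPS was detected when piericidin A was given before LPS. In WT BMDMs 0 of 10 genes were called between LPS with and without piericidin A, where 16.7% of genes tested changed in either direction. None had an unadjusted p under 0.05, and DESeq2 called none. *Tnfaip3* was at 2191, 1975, 1317, 2157 and 1879 CPM with both and at 2149, 1864, 1308, 2357 and 1758 CPM with LPS alone. *Nfkbia* was at 1818, 1786, 1488, 2137 and 1816 CPM with both. The ranges of these groups overlapped for all 10 genes. The log2 fold changes lay between -0.30 for *Nfkb2* (95% confidence interval -0.71 to 0.12) and 0.18 for *Rela* (-0.06 to 0.42). Within mice, *Nfkb1* (0.853- to 0.921-fold) and *Nfkbiz* (0.674- to 0.914-fold) were lower with both treatments in 5 of 5 WT mice, and *Rela* (1.05- to 1.25-fold) and *Relb* (1.00- to 1.27-fold) higher in 5 of 5. None of these passed the test with the mouse as a block either. *Nfkb2* was at 799 CPM in mouse 496 and 522 CPM in mouse 520, against 1316 and 762 CPM with LPS alone, while the other 3 WT mice were at 952, 1041 and 837 CPM. The ratio of both treatments to LPS alone was lowest in these mice for *Nfkb2* (0.607 and 0.685), and also for *Nfkbie* (0.690 and 0.694) and *Bcl3* (0.702 and 0.726).

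In NDI1 BMDMs, piericidin A under LPS also gave 0 of 10 calls (0% of genes tested, with 0 of 10 at an unadjusted p under 0.05 and 0 by DESeq2), with log2 fold changes between -0.09 for *Nfkbiz* and 0.01 for *Nfkbia*. The difference of this effect between genotypes called 0 of 10 (0.979% of genes tested, with 0 of 10 at an unadjusted p under 0.05 and 0 by DESeq2). With both treatments, the level in NDI1 differed from WT in 0 of 10 genes, where 12.0% of genes tested differed. Again 0 of 10 had an unadjusted p under 0.05, and DESeq2 called 0. Within NDI1 mice, *Nfkbie* was lower with both treatments than with LPS alone in 5 of 5 (0.920- to 0.999-fold). It did not pass the test with the mouse as a block.

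The rise of *Tnfaip3* with LPS was smaller in the presence of piericidin A in WT BMDMs, from a higher level with piericidin A alone to an overlapping range with LPS. All 10 genes still rose with LPS in piericidin A-treated WT BMDMs (10 of 10, where 25.8% of genes tested rose) and in NDI1 BMDMs (10 of 10, where 30.6% rose). In WT, *Tnfaip3* rose 29.4-fold without and 11.0-fold with piericidin A, *Nfkbiz* 59.0- and 22.8-fold, *Nfkbia* 11.8- and 5.49-fold, and *Bcl3* 4.22- and 2.56-fold. In NDI1, *Tnfaip3* rose 26.6-fold without and 23.1-fold with piericidin A, and *Nfkbiz* 65.1- and 52.0-fold.

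The test of this change in the LPS effect called 1 of 10 genes in WT, *Tnfaip3*, where 2.16% of genes tested were lower. Its log2 change was -1.42 (SE 0.37, adjusted p = 0.017). *Nfkbiz* (-1.37, adjusted p = 0.05001), *Bcl3* (-0.72, adjusted p = 0.056) and *Nfkbia* (-1.10, adjusted p = 0.075) were above the threshold. With the mouse as a block all 4 of these genes passed, with adjusted p of 0.00083 for *Tnfaip3*, 0.0033 for *Nfkbiz*, 0.0081 for *Bcl3* and 0.0082 for *Nfkbia*, where 9.48% of genes tested were lower. DESeq2 without the block also called 4, where 2.87% were lower. The count was 0 without mouse 449, 496 or 520, and 2 without mouse 453. Without both mice that stood apart it was 0, or 2 with the block. The 5 subunits had changes between -0.50 for *Relb* and 0.03 for *Rela*, and none passed in any of these fits. In NDI1 BMDMs 0 of 10 genes were called (0% of genes tested, with 0 of 10 at an unadjusted p under 0.05 and 0 by DESeq2), and *Tnfaip3* changed by -0.20 (95% confidence interval -0.94 to 0.54).

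**Figure D5:**
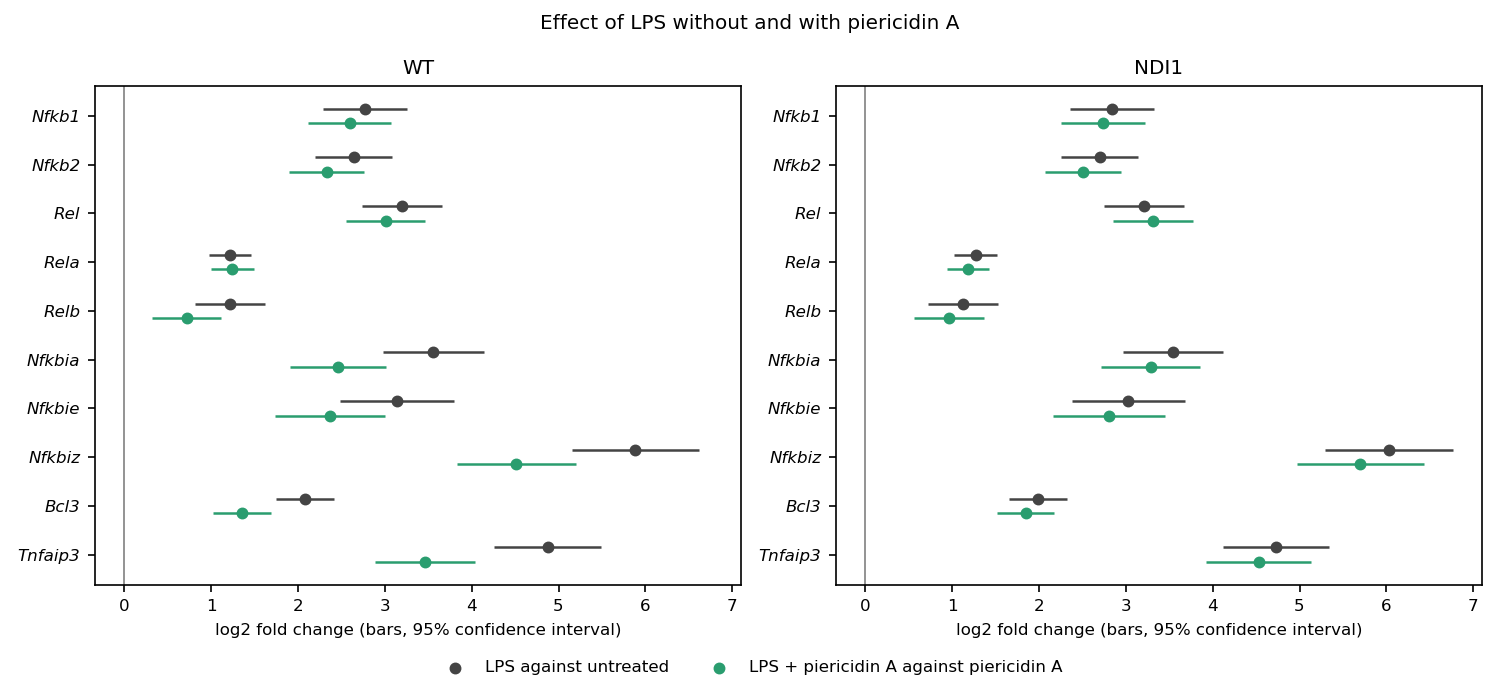
log2 fold change of LPS against untreated libraries (grey) and of LPS with piericidin A against piericidin A alone (green), with 95% confidence intervals, in WT (left) and NDI1 (right), n = 5 mice per group. In WT the green points of *Nfkbia*, *Nfkbiz*, *Bcl3* and *Tnfaip3* lie left of the grey ones, for *Tnfaip3* at 3.46 against 4.88, and in NDI1 at 4.53 against 4.73.

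When all 8 groups were tested together for any difference, 10 of 10 genes were called, where 74.5% of genes tested were called.

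The other genes of the pathway were described from lists of symbols. The 3 remaining IκB family genes rose with LPS in WT, most of all *Nfkbib* (IκBβ), with a log2 fold change of 2.57 (SE 0.21), and *Nfkbid* (IκBNS), with 1.64 (SE 0.24). *Nfkbib* also rose with piericidin A alone in WT, from 37.8 ± 9.62 to 78.4 ± 31.6 CPM (log2 fold change 1.05, SE 0.20, adjusted p = 0.00038), the only 1 of the 3 called. Of 11 IKK subunits and activating kinases, 6 rose and 2 fell with LPS in WT, where 31.5% of all genes tested rose and 31.0% fell, and the median log2 fold change was 0.75. *Map3k8* (TPL2, a kinase held inactive by p105) rose by 2.95, while *Map3k14* (NIK, the kinase of the non-canonical pathway) fell by 1.98 on the log2 scale. With piericidin A alone, where 7.79% of all genes tested rose and 7.05% fell, *Map3k14* was the only 1 of the 11 called and fell by 0.86 (adjusted p = 0.0039). The same shares over all genes apply to the counts of the other lists in these 2 comparisons. With the mouse as a block, piericidin A alone raised 17.2% and lowered 16.9% of all genes, and 3 of the 11 kinases fell, 5 adaptors and ligases rose and 2 fell, 5 negative regulators rose, and 12 of the 20 target genes described below rose.

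Of 18 adaptors and ubiquitin ligases between TLR4 and NF-κB, 13 rose and 3 fell with LPS in WT. *Traf1* rose by 4.26 and *Myd88*, the adaptor of most Toll-like receptors, by 2.83 on the log2 scale. With piericidin A alone 4 rose and 2 fell, led by *Irak2* (0.85, SE 0.15) and *Ticam1* (0.80, SE 0.16) upward and *Tirap* (-0.63, SE 0.18) downward. Of 15 other negative regulators, 9 rose and 1 fell with LPS in WT, and 4 rose with piericidin A alone, led by *Zc3h12a* (Regnase-1, an RNase that degrades cytokine mRNA) at 1.46 (SE 0.17). Under LPS, piericidin A lowered 4 of these 15 and raised 1 in WT. *Irak3*, an inhibitor of TLR signaling, fell from 207 ± 77.3 to 98.2 ± 29.8 CPM, and *Tnip3* fell from 1221 ± 277 to 595 ± 113 CPM. In this comparison 16.7% of all genes tested changed in either direction, and of the other lists 6 of 18 adaptors and ligases and 1 of 11 kinases (*Ikbkb*) were called. With the mouse as a block, where 34.5% of all genes changed, 6 of the 11 kinases fell, 3 of the 18 adaptors and ligases rose and 7 fell, and 1 of the 15 negative regulators rose and 5 fell.

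The 20 genes on the list of classical NF-κB targets all rose with LPS in WT, with a median log2 fold change of 6.44. Whether NF-κB regulates each of them in these cells was not tested. With piericidin A alone in WT, 11 of the 20 rose and none fell, with a median of 1.37. *Ccl4* and *Ccl3*, which encode chemokines, rose most, from 7.21 ± 2.80 to 268 ± 273 CPM and from 12.2 ± 4.12 to 259 ± 228 CPM. The SD of these genes with piericidin A was close to the mean, so that mice differed widely. In NDI1, 0 of the 20 were called with piericidin A alone, where 0% of all genes tested were called. In the test of the difference 6 of the 20 were lower in NDI1, where 1.10% of all genes tested were lower, or 9 of 20 with the mouse as a block, where 5.15% were. Under LPS, piericidin A changed 1 of the 20 in WT, *Bcl10*, by -0.42 (SE 0.14), where 16.7% of all genes tested were called. With the mouse as a block 2 of the 20 rose and 3 fell, where 34.5% of all genes were called.

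Each member was compared with all other genes by the Pearson correlation of log2 CPM over the 40 libraries, which share mice and are dominated by the effect of LPS. The gene most like *Nfkbiz* was *Socs3* (r = 0.997), that most like *Nfkb1* was *Foxp4* (0.995), that most like *Nfkbia* was *Tnf* (0.995) and that most like *Nfkbie* was *Ehd1* (0.995). *Tnfaip3* was most like *Cxcl10* (0.994), *Rel* like *Nsd3* (0.990), *Nfkb2* like *Gbp2b* (0.988), *Bcl3* like *Tnip1* (0.985) and *Rela* like *Gm26809* (0.984). *Relb* had the lowest best match, with *Acod1* at 0.962. Between members, the correlation was highest for *Nfkbia* and *Tnfaip3*, at 0.993, and lowest for *Rel* and *Relb*, at 0.831.

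The genes are spread over 8 chromosomes and are given here by Ensembl identifier and mm10 position as in the count table. *Nfkb1* (ENSMUSG00000028163) is at chr3:135584655-135691547, *Nfkb2* (ENSMUSG00000025225) at chr19:46304737-46312090, *Rel* (ENSMUSG00000020275) at chr11:23741514-23770970, *Rela* (ENSMUSG00000024927) at chr19:5637483-5648130 and *Relb* (ENSMUSG00000002983) at chr7:19606217-19629438. *Nfkbia* (ENSMUSG00000021025) is at chr12:55489411-55492647, *Nfkbie* (ENSMUSG00000023947) at chr17:45555716-45563169, *Nfkbiz* (ENSMUSG00000035356) at chr16:55811375-55838899, *Bcl3* (ENSMUSG00000053175) at chr7:19808462-19822770 and *Tnfaip3* (ENSMUSG00000019850) at chr10:19000910-19015657. *Nfkb2* overlaps *Psd* and *Bcl3* overlaps *Gm16174* and *Gm16175* in the count table. The overlapping genes held 9786 counts against 204176 for *Nfkb2* and 194 counts against 40925 for *Bcl3* over all libraries. Whether reads were counted by strand is not given in the sources used here.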

How the data were processed

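RNA-seq libraries were made from BMDMs of 10 mice under 4 treatments. The authors used bcl2fastq for demultiplexing, Trimmomatic for trimming, STAR for alignment (mm10) and HTSeq for counting over exons, and the deposited table holds raw counts per gene. Which annotation was counted, and whether by strand, is not given in the sources used here. Of 43430 Ensembl identifiers, 42462 matched a symbol. The table held 1 further per-sample column that matches no sample and was not used.

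Counts were filtered with filterByExpr over the 8 groups, which kept 11853 genes, scaled by TMM factors and tested with edgeR 4.0.16 (quasi-likelihood test, R 4.3.3) in a single fit of all 40 libraries without a block. P-values were adjusted over all genes tested by the Benjamini-Hochberg method, with a threshold of 0.05, and adjusted p-values in the text come from this test unless another tool is named. CPM values are TMM-scaled, and log2 CPM had a prior count of 2. Lengths were those of the longest GENCODE transcript, capped at the exon length of the count table. The mouse number in the labels pairs the 4 libraries of an animal, and deviations from the group means correlated at a mean of 0.453 (0.0995 to 0.769) within mice. Between mice of a genotype the mean was -0.107. Centering on group means makes this value negative when that within mice is positive, so it adds no separate evidence. Because the libraries are paired, the mouse as a block was an alternative fit within genotypes and for differences of effects. DESeq2 1.42.0, RLE factors, other filters, fits of only the compared libraries and fits without each mouse were the other alternatives. Replicates are separate mice, and the depth of 6950748 to 13552070 counts per library sets the counting precision. The scripts were tested on simulated data.

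The genes and gene lists were chosen with earlier results of these data known. The text names all 10 members, of each other list at most the 2 largest called rises and falls per comparison, and for each member the gene most correlated with it.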

Additional observations from a re-analysis of the deposited data

Results flagged for a closer look

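In each of the 8 groups, the highest and lowest of the 5 libraries were compared with the others for each of the 10 genes by Dixon's ratio, which is the gap to the nearest library divided by the range. Of 80 combinations 3 were above the critical value of 0.71, and chance gives about 1 in 20. *Nfkb2* in NDI1 BMDMs with piericidin A was lowest in mouse 461, at 99.1 CPM against 194 to 205 CPM in the other mice (ratio 0.900). *Relb* was lowest in the same library, at 48.3 CPM against 99.9 to 118 CPM (ratio 0.744). *Tnfaip3* in NDI1 BMDMs with LPS was highest in mouse 503, at 2297 CPM against 1704 to 1852 CPM (ratio 0.750).

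The effect of piericidin A on *Tnfaip3* differed between genotypes when the mouse was a block, by -1.24 on the log2 scale, NDI1 minus WT (edgeR, adjusted p = 0.00435). Without the block the adjusted p was 0.0785, and in the block fit without both mice that stood apart it was 0.0683, so that it was called in neither. Within mice the ratio to untreated was above 1 in 5 of 5 WT mice, at 2.00 to 3.50, and lay between 0.991 and 1.31 in NDI1 mice.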

How the results depend on the processing

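No recomputed value that had passed the threshold changed direction. Changes close to 0 did change sign, such as *Nfkb2* with piericidin A in WT, at 0.015 and at -0.0013 with DESeq2. With library totals *Nfkb1* and *Nfkb2* with piericidin A in WT went from 1.02- and 1.01-fold to 0.932- and 0.924-fold. Of the recomputed values for single genes 588 kept their side of the threshold, 31 lost the call and 13 gained it. The 10 of 10 calls with LPS, with and without piericidin A, held in every alternative run.

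The number of the 10 genes called with piericidin A in WT was 5, and it was 3 with no filter on low counts, 1 with only the compared libraries, 1 to 5 without a single mouse and 2 without both mice that stood apart, an alternative chosen after seeing the data. For the difference of this effect between genotypes it was 0, and 1 with DESeq2, 1 with the replicate block and 0 to 1 without a single mouse. For the LPS effect changed by piericidin A in WT it was 1, and 4 with DESeq2, 2 with at least 10 counts in every library, 4 with the replicate block, 0 to 2 without a single mouse, 0 without both mice that stood apart and 2 without both and with the block. For NDI1 against WT with piericidin A it was 2, and 0 with only the compared libraries, 1 to 3 without a single mouse and 1 without both mice. The cause of these changes was not tested.

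Pairing by mouse raised the number of all genes called from 1759 to 4049 for piericidin A in WT, from 150 to 1062 for its difference between genotypes, from 1983 to 4090 for piericidin A under LPS in WT, from 116 to 1127 for the difference of that effect and from 563 to 2066 for the changed LPS effect. DESeq2 called 285 and 225 genes for the differences between genotypes without and with LPS. With no filter the latter count was 72. With only the compared libraries it was 49, and 891 genes were called for piericidin A under LPS in WT, 354 for the changed LPS effect, 477 for NDI1 against WT with piericidin A and 398 with both treatments. Fits without 1 mouse called 788 to 1564 genes for piericidin A in WT and 63 to 200 for its difference between genotypes. They called 841 to 2023 for piericidin A under LPS in WT, 27 to 255 for the difference of that effect and 163 to 501 for the changed LPS effect. For NDI1 against WT they called 587 to 1115 with piericidin A and 746 to 1792 with both treatments. The block changed no other call of the 10 genes. With library totals in place of TMM factors, 55 of 80 group means moved by more than their SD.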
